A study of Mus musculus with 2 samples.

Results

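The 10 genes described here are Hes1, Hes5, Hes6, Hey1, Hey2, Heyl, Id1, Id2, Id3 and Id4 of the mouse. They were taken as a list by name, and all 10 were found among the 21755 protein-coding genes of GENCODE M21 (GRCm38) on the chromosomes with boundaries. Their chromosomal surroundings were read from a list of 7841 domain boundaries in immediate neuronal precursors of the olfactory epithelium. These precursors are cells about to become olfactory sensory neurons. They were sorted by fluorescence from FVB/NTac pups of mixed sex bearing an Ngn1-GFP reporter, as untreated primary cells. In situ Hi-C with DpnII, in which DNA fragments that touch in nuclei fixed with 1% formaldehyde are ligated, gave the contacts between chromosomal sites. There were 2 biological replicates of this single group, of 2200000 and 2100000 cells. How many animals were pooled is not given in the sources used here.

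Boundaries are positions across which contacts are depleted, and the sequence between a pair of neighbouring boundaries is called a domain. The authors called them after combining the contacts of both replicates into a single matrix. No value below therefore has a replicate error, and the depth behind the calls is unknown. Each boundary is a 5 kb interval with a class and a score, both the authors' own, where a higher score marks stronger insulation. Scores of 0.5 and above form the strong class of 4137 boundaries, and scores from 0.2 up to 0.5 the weak class of 3704. The list holds no expression values, so the labelled cell type was not set against marker genes, and nothing below says whether a gene was active.

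Hes and Hey genes encode basic helix-loop-helix repressors, and most of them are switched on by Notch signalling. Hes1 and Hes5 keep neural progenitors undifferentiated by repressing proneural genes such as Neurog1. Hes6 is the exception, since it antagonises Hes1 and promotes neuronal differentiation. Id proteins have the helix-loop-helix but no DNA-binding region. They sequester E proteins, the partners that proneural factors need, and their genes are classic targets of Bmp signalling. In the olfactory epithelium Hes1 marks supporting cells and Hes5 is found in neuronal progenitors.

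With all boundaries counted, the 10 genes fell into 2 kinds of surroundings. Hes1, Hey1, Hey2, Id2 and Id4 lay in long domains of 405 to 775 kb with at most 2 other protein-coding gene starts. Heyl, Id1, Hes6, Hes5 and Id3 lay in domains of 155 to 255 kb that held 4 to 9 others. Over all protein-coding genes with a domain, 30.7% had at most 2 others, and the members' share was 5 of 10. Among the 5119 genes in domains of at least 405 kb the share was 25.7%, and among the 16409 in shorter domains it was 32.2%. Domains of at least 405 kb held 23.8% of all genes with a domain. The split at 405 kb was chosen after the values had been seen, and it rests on the weak boundaries. With strong boundaries alone 8 of 10 members lay in domains of at least 405 kb, among them Id1 (405 kb), Id3 (530 kb) and Hes6 (660 kb), and Heyl (155 kb) and Hes5 (255 kb) did not. At most 2 other starts then shared the domain of 4 members, Hes1, Hey1, Id2 and Id4, while that of Hey2 held 8. The shares over all genes given above are for all boundaries. With strong boundaries alone they are not given here, so these 2 counts have no background. A domain here runs between the midpoints of the boundaries that enclose the TSS, the transcription start site at the 5′ end of the gene model. Id4 started inside a boundary interval, so its place among the long domains rests on this rule. The domain on the other side of that midpoint was 240 kb long. Hes1 and Id2 started 3.12 and 4.64 kb from the midpoint of their nearest boundary. A shift of that boundary by 1 interval could therefore place them in the domain beyond it. Those domains were 175 kb long for Hes1 and 115 kb for Id2, and neither held a protein-coding start.

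**Figure D1:**
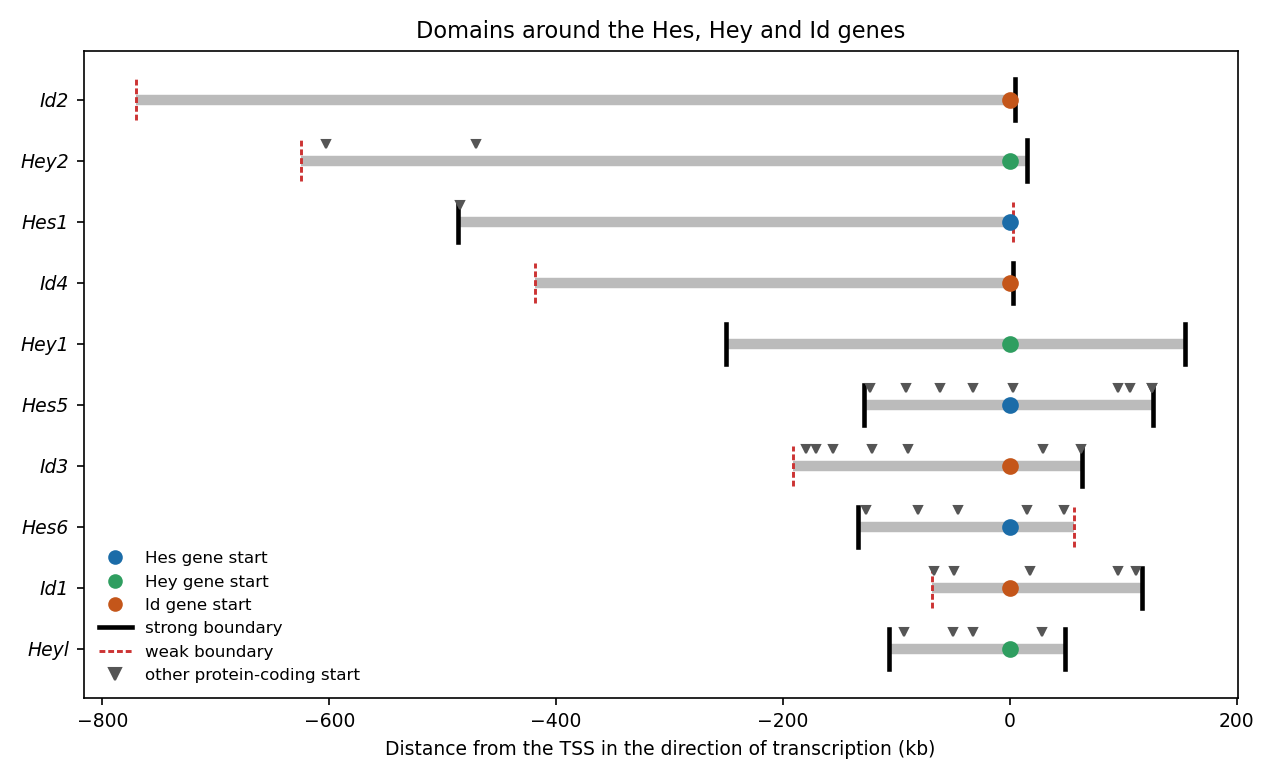
Each row is the domain of 1 gene, aligned on its TSS at 0 and drawn in the direction of transcription, with distance in kb on the horizontal axis. Black bars are strong boundaries, dashed red bars weak ones and triangles other protein-coding gene starts. The upper 5 domains, from 405 to 775 kb, carry at most 2 triangles, and 4 of these genes sit at the downstream end.

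The sequences that bear most directly on these boundaries are shown first. CTCF is the DNA-binding protein that halts loop extrusion by cohesin, and domain ends often carry its sites in convergent orientation, pointing into the domain. Exact matches to the CTCF consensus of 12 letters were sought on both strands in each boundary interval extended by 10 kb. Hes5, Hey1 and Id3 had matches pointing into their domain at both ends, 3 of 10 members, against 2.85% of all protein-coding genes with a domain and 2.62% of all domains. The count rests on the extension by 10 kb. Of these 3 genes, Hey1 downstream and Id3 upstream alone had a match inside the bare interval, so none had both. The inward match downstream of Hes5 lay 4.65 kb beyond the interval, outside the domain. Hes5 at both ends and Id3 upstream also had an outward match. The 12 matching bases are in capitals, each is written 5′ to 3′ on the strand of the match, and all come from the reference genome GRCm38.p6.
Hes5 upstream boundary, chr4:154837363-154837392, plus strand: caggtctggCCACTAGAGGGCatagctgag
Hes5 downstream boundary, chr4:155094640-155094669, minus strand: gattctaggCCAGCAGGGGGCagtgtccac
Hey1 upstream boundary, chr3:8913938-8913967, minus strand: gtcagccttCCAGCAGGTGGCaggcatagg
Hey1 downstream boundary, chr3:8513859-8513888, plus strand: cttttcacaCCACTAGAGGGCaatcaatgt
Id3 upstream boundary, chr4:135951676-135951705, plus strand: ctacagaggCCAGTAGGGGGCattgggtct
Id3 downstream boundary, chr4:136200045-136200074, minus strand: tccttgtgtCCACCAGAGGGCagtagtgct

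The second sequence is the promoter of Id4, because the boundary nearest to Id4 covers it. The 250 bases before the RefSeq start lie wholly inside the boundary interval on chromosome 13 (48260001 to 48265000). Capitals mark the RBPJ core TGGGAA, read by the DNA-binding protein of the Notch pathway, and the N-box CACNAG, a Hes binding motif, on either strand. The sequence is that of RefSeq, GRCm38.p6.
Id4 promoter, chr13:48260866-48261115, plus strand: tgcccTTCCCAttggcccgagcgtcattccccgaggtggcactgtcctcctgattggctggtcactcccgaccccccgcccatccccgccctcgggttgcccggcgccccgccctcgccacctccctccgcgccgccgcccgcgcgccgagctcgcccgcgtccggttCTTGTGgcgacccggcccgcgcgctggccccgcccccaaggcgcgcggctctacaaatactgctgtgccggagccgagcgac
It held 1 match to each of these motifs, no TATA box (TATAAA), 75.6% G and C bases and 35 CG dinucleotides. Among 32851 RefSeq promoters of the same length, 21.6% held the RBPJ core, 36.7% the N-box and 12.4% the TATA box, and the median promoter had 52.4% G and C bases and 6 CG dinucleotides. These are matches of letters, not measured binding.

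Among the Notch effectors, Hes1 stood at the edge of its domain. Hes1 (ENSMUSG00000022528.8, chromosome 16, 30064384 to 30067796, plus strand) started 617 bases before a boundary interval (30065001 to 30070000) that overlapped the rest of the gene body. That boundary was weak, with a score of 0.298, and 23.2% of all boundaries scored lower. The other end of the domain was 484 kb upstream (29575001 to 29580000) and strong, with a score of 1.34. The only other protein-coding start in the 490 kb was that of Opa1, which encodes a GTPase of mitochondrial fusion. Opa1 started inside the upstream boundary interval, 485 kb from Hes1. The domain also held 7 long noncoding genes. On the far side of the boundary at Hes1, the next domain of 175 kb held no protein-coding gene start either. The nearest other start on the chromosome was 203 kb away, a larger gap than that of 95.1% of genes.

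Hes5 lay in the middle of a domain with strong ends. Hes5 (ENSMUSG00000048001.7, chromosome 4, 154960923 to 154962371, plus strand) started 126 kb from its upstream boundary (154830001 to 154835000, score 1.84) and 124 kb from its downstream boundary (155085001 to 155090000, score 1.45). The 2 distances differ by less than the 5 kb width of a boundary interval. The upstream score was higher than that of 97.5% of all boundaries, the highest of the 20 boundaries that enclose the 10 genes. The domain of 255 kb held 9 other protein-coding starts, the most of any member and more than for 70.5% of all genes with a domain. The median over genes of at most 20 kb was 7. Nearest was Pank4, of the pantothenate kinase family, 3.20 kb downstream. Tnfrsf14, a receptor of the TNF receptor superfamily, and Fam213b followed at 32.4 and 61.8 kb upstream.

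Each end of the Hes5 domain had a match pointing inward and a second one pointing outward, 4 in all. The RefSeq promoter of Hes5, a direct Notch target, held 2 RBPJ cores in its 250 bases. Of the 7 RefSeq promoters found for 6 members, those of Hes5, Hey2 and Id4 held the core, 3 of 7, and both of Hes6 and those of Id2 and Id3 did not. Over 32851 RefSeq promoters the share was 21.6%. No promoter was found for Hes1, Hey1, Heyl and Id1. The Hes5 promoter lay far inside the domain, and both ends of the domain carried other gene starts, Ttc34 upstream and Morn1 and Rer1 downstream.

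Hey1 was the only protein-coding gene to start between its boundaries, both of them strong. Hey1 (ENSMUSG00000040289.8, chromosome 3, 8663359 to 8667256, minus strand) is a Notch target best known from the heart and vessels. It started 152 kb from its downstream boundary (8510001 to 8515000, score 1.24), a larger distance than that of 87.4% of protein-coding genes and the largest of the 10. The upstream boundary lay 248 kb away (8915001 to 8920000, score 1.35). No other protein-coding gene started in the 405 kb, which held 4 pseudogenes and 2 long noncoding genes. Other genes started at the 2 ends, Stmn2, a microtubule regulator of neurons, 0.641 kb from the downstream interval and Mrps28, a mitochondrial ribosomal protein gene, 3.92 kb from the upstream interval. Each of these starts lay on the outer side of the boundary, but the bodies of both genes overlapped the boundary interval. The matches at the 2 ends, 1 each, both pointed inward, and the downstream one lay inside the boundary interval.

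Hey2 had a near boundary behind it and a long stretch without protein-coding starts before it. Hey2 (ENSMUSG00000019789.9, chromosome 10, 30832359 to 30842801, minus strand), a regulator of heart and vessel development, started 12.8 kb from a strong boundary (30825001 to 30830000, score 0.712). The 3′ end of the gene was 2.36 kb from that interval. The upstream boundary was 622 kb away and weak (31465001 to 31470000, score 0.265). In the domain of 640 kb, the starts of Hddc2 and Tpd52l1 lay 471 and 603 kb upstream of Hey2. The domain also held 13 genes that are not protein-coding, among them 3 long noncoding genes and 4 pseudogenes. Neither boundary had a protein-coding start within 10 kb. The gene nearest to Hey2 started 39.5 kb away, across the boundary, in a domain of 245 kb with Trmt11, Hint3 and Ncoa7.

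Heyl had the shortest domain of the 10 with all boundaries counted. Heyl (ENSMUSG00000032744.4, chromosome 4, 123233556 to 123249875, plus strand) started 46.4 kb from its downstream boundary (123280001 to 123285000, score 0.526) and 104 kb from its upstream boundary (123125001 to 123130000, score 0.947). The lower score is close to the start of the strong class. With boundaries at or above the median score it drops out, and the domain of Heyl was 395 kb, longer than the 255 kb of Hes5, with the nearest boundary 104 kb away. Its domain of 155 kb also held Pabpc4, a poly(A)-binding protein gene, 28.8 kb downstream. Nt5c1a, a nucleotidase gene, lay 32.1 kb upstream, Hpcal4, a neuronal calcium sensor gene, 50.3 kb and Ppie, a cyclophilin gene, 93.6 kb.

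Hes6, the member that promotes differentiation, had the weakest enclosing boundary of the 10 genes. Hes6 (ENSMUSG00000067071.8, chromosome 1, 91411483 to 91414038, minus strand) started 54.0 kb from a downstream boundary with a score of 0.208 (91355001 to 91360000), and only 2.35% of all boundaries scored lower. The upstream boundary, 131 kb away, was strong (91545001 to 91550000, score 0.997). The domain of 190 kb held 5 other starts. Ilkap, a phosphatase gene, lay 15.2 kb downstream and Erfe, which encodes an iron-regulating hormone, 47.6 kb downstream. Upstream were the clock gene Per2 at 45.3 kb, the ciliary transport gene Traf3ip1 at 80.6 kb and Asb1 at 127 kb. With strong boundaries alone, the weak boundary drops out by construction and the nearest boundary of Hes6 was 131 kb away.

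The 4 Id genes shared a pattern of boundary strength. Each had a strong boundary downstream and a weak one upstream. The downstream scores were 1.52 for Id1, 1.28 for Id2, 0.680 for Id3 and 0.847 for Id4, and the upstream scores 0.264, 0.256, 0.484 and 0.245. The upstream value of Id3 was just under the start of the strong class, so its class rests on a small difference in score. Id4 started inside its downstream interval, 1.27 kb from the midpoint, so its pattern rests on the midpoint rule. The domain beyond that midpoint was 240 kb long and ended at a strong boundary, with a score of 2.04. Placed there, Id4 would have strong boundaries on both sides. Id2 started 4.64 kb from the midpoint of its downstream boundary, so a shift of that boundary by 1 interval could change its side. The domain beyond the boundary, of 115 kb, ended at a weak boundary with a score of 0.258. Placed there, Id2 would have the strong boundary upstream and a weak one downstream. Over all protein-coding genes with a domain, 24.1% had a strong downstream and a weak upstream boundary. The downstream score was the higher one for 49.0%. Among the 6 Hes and Hey genes, 1 had it, Hey2, and 5 had the higher score upstream. The pattern was noticed in the values and was not tested.

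**Figure D2:**
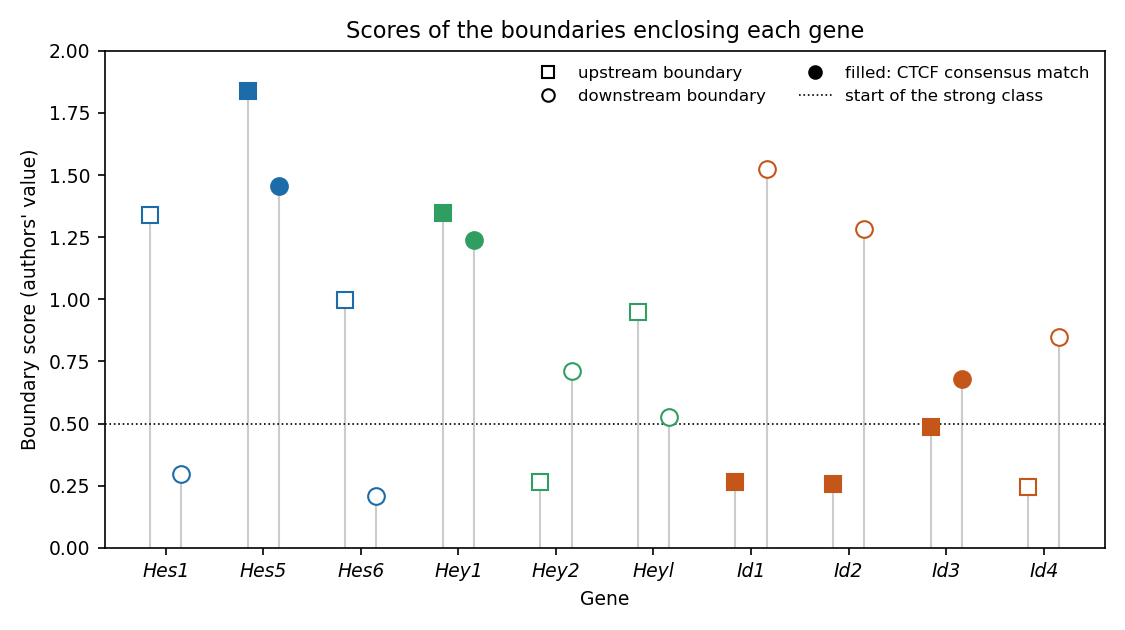
The vertical axis gives the authors' boundary score and the horizontal axis the 10 genes, with squares for the upstream and circles for the downstream boundary. Filled symbols have a CTCF consensus match within 10 kb and the dotted line is the start of the strong class at 0.5. All 4 Id genes have the circle above and the square below that line, and Hes5, Hey1 and Heyl have both symbols above it.

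Id2 and Id4 were the sole protein-coding genes of their domains. Id2 (ENSMUSG00000020644.9, chromosome 12, 25093799 to 25097140, minus strand), which holds back differentiation in many lineages, started 2.14 kb from a boundary interval (25090001 to 25095000, score 1.28) that overlapped the 3′ part of the gene. That boundary scored higher than 90.2% of all boundaries. Upstream, the next boundary was 768 kb away (25865001 to 25870000, score 0.256), and the nearest protein-coding start to it, Rnf144a, was another 545 kb on. The domain of 775 kb was the longest of the 10 and longer than that of 94.0% of genes. It held 5 long noncoding genes and 2 pseudogenes.

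Id4, known from neural progenitors, started inside a boundary interval. Id4 (ENSMUSG00000021379.2, chromosome 13, 48261228 to 48266026, plus strand) is the member whose promoter is printed above. The boundary had a score of 0.847, higher than 71.9% of all boundaries. The other end of its domain was 416 kb upstream (47840001 to 47845000, score 0.245), and the 420 kb held 4 long noncoding genes. The nearest protein-coding start on either side was 252 kb away, a larger gap than that of 96.4% of genes.

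Id1 and Id3, which act redundantly in the mouse forebrain, shared their domains with 5 and 7 other protein-coding starts. The median was 5 over all genes and 7 over genes of at most 20 kb. Id1 (ENSMUSG00000042745.9, chromosome 2, 152736251 to 152737410, plus strand) started 66.3 kb from its upstream boundary (152665001 to 152670000, score 0.264) and 114 kb from its downstream boundary (152850001 to 152855000, score 1.52). The domain of 185 kb held Cox4i2, a subunit gene of cytochrome c oxidase, 17.9 kb downstream. Bcl2l1, the gene of an anti-apoptotic protein, lay 95.5 kb downstream and the spindle gene Tpx2 112 kb. Mcts2 and the signal peptide peptidase gene H13 lay 49.2 and 66.8 kb upstream, and H13 started inside the upstream boundary interval. Id1 was the only member with its nearer boundary upstream.

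Id3 (ENSMUSG00000007872.3, chromosome 4, 136143497 to 136145755, plus strand) started 61.5 kb from its downstream boundary (136205001 to 136210000, score 0.680) and 188 kb from its upstream boundary (135950001 to 135955000, score 0.484). Of the 7 other starts in its 255 kb, the nearest were the cell cycle gene E2f2 at 28.9 kb and Asap3 at 62.9 kb downstream and the ribosomal protein gene Rpl11 at 90.1 kb upstream. Asap3 started inside the downstream boundary interval. Hes5, Heyl and Id3 are all on chromosome 4, each in a domain of its own, and the 10 genes had 20 different enclosing boundaries.

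Over all 10 genes, the start was within 10 kb of a boundary for 3, namely Id4 (0 kb), Hes1 (0.617 kb) and Id2 (2.14 kb). The next was Hey2 at 12.8 kb. The share over all protein-coding genes was 16.4%, and of the 11687 genes with a body of at most 20 kb, as all members have, 15.4% were as near. Id4 alone started inside an interval, 1 of 10, against 5.07%. With the start of the principal transcript Hes1 did too, which makes 2 of 10. The median distance was 50.2 kb for the members and 55.3 kb for all protein-coding genes, which is close. The members' distances ran from 0 to 152 kb. At 50 kb, 5 of 10 members counted as near, against 46.3% of all genes. A single gene makes 10 percentage points of each share over the members. With strong boundaries alone, 2 of 10 members were within 10 kb, Id2 and Id4, against 10.6%.

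**Figure D3:**
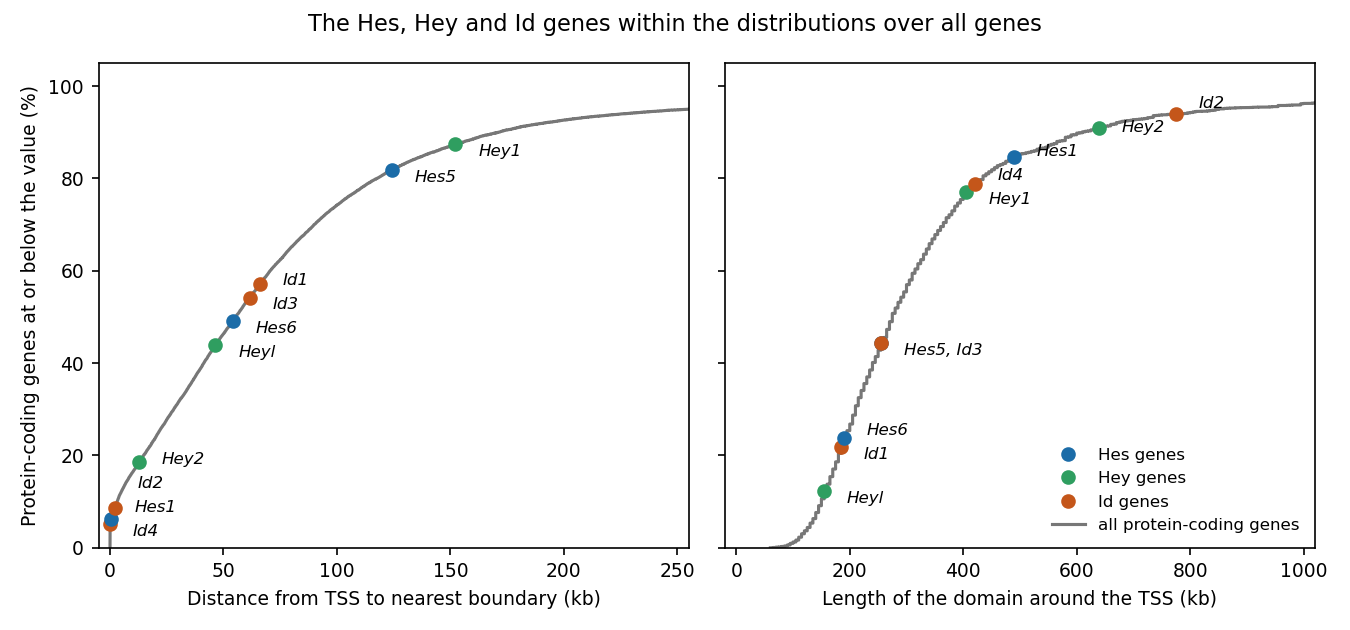
Points are the 10 genes placed on the cumulative curve over all protein-coding genes (grey), for the distance from the TSS to the nearest boundary (left, kb) and for the domain length (right, kb). The vertical axis is the percentage of genes at or below the value. The members spread along both curves, with Id4, Hes1, Id2 and Hey2 at the low end of distance and Id2 and Hey2 near the top of length.

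The boundary interval overlapped the gene body of these same 3 members. Their bodies are short, between 3.34 and 4.80 kb. Of all protein-coding genes 17.7% overlapped a boundary interval, but longer bodies overlap more often. Of all protein-coding genes with a body of at most 20 kb, 8.68% did. All 3 boundaries had the member as the only protein-coding start within 10 kb, as had 55.3% of the 3556 genes near a boundary. Around Id2 and Id4 the 2 domains that meet at the boundary held no other protein-coding start, and around Hes1 they held 1. No other start was found for 5.54% of the genes near a boundary. At most 1 other start was found for 11.0% of the genes near a boundary, and the median was 6. No exact CTCF match lay within 10 kb of any of the 3, or of the boundary next to Hey2, while 26.0% of all boundaries had one. When 1 mismatch was allowed, each of these 4 boundaries had between 3 and 6 matches, as 89.1% of all boundaries had at least 1.

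The nearer boundary lay on the downstream side of the TSS in 9 of 10 members, measured to the interval midpoint. It was downstream for 48.3% of all protein-coding genes with a domain and for 50.7% of those of at most 20 kb. The count was between 8 and 9 under the 5 alternatives run. For Hes5 the 2 sides could not be told apart at the 5 kb resolution of the intervals. Id4, Hes1 and Id2 started 1.27, 3.12 and 4.64 kb from the midpoint of their nearest boundary. Each of these distances is below 5 kb, so a shift of the boundary by 1 interval could change their side. The side was examined after the values had been seen. In the 58 genes of the related lists below, it was downstream in 23.

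Both enclosing boundaries were strong for Hes5, Hey1 and Heyl, 3 of 10, against 38.1% of all protein-coding genes with a domain. The other 7 members had 1 strong and 1 weak boundary, and none had 2 weak ones, against 13.0%. The members' share with 2 strong ends is near that of all genes. Of the 20 enclosing boundaries 13 were strong, near the 62.6% over the enclosing boundaries of all protein-coding genes, while 52.8% of all boundaries in the list are strong. Their median score was 0.779, against 0.632 over the enclosing boundaries of all protein-coding genes. In both comparisons with genes a boundary is counted once for each gene it encloses.

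Domain length had a median of 330 kb for the members and 275 kb for all protein-coding genes. The median number of other protein-coding starts was 3 for the members and 5 for all genes, and it was 7 for genes of at most 20 kb. No other start was found for 3 of 10 members, Hey1, Id2 and Id4, against 9.01% of all genes. In starts per Mb of domain, the member included, Id2 had 1.29, Id4 2.38, Hey1 2.47, Hes1 4.08 and Hey2 4.69. Heyl, Id1, Hes6, Id3 and Hes5 had between 31.4 and 39.2. The median was 21.3 over all genes and 30 over genes of at most 20 kb, whose quartiles were 17.1 and 47.1. No member lay between the 2 ranges of the members. The Hes, Hey and Id genes were found on both sides of this gap.

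**Figure D4:**
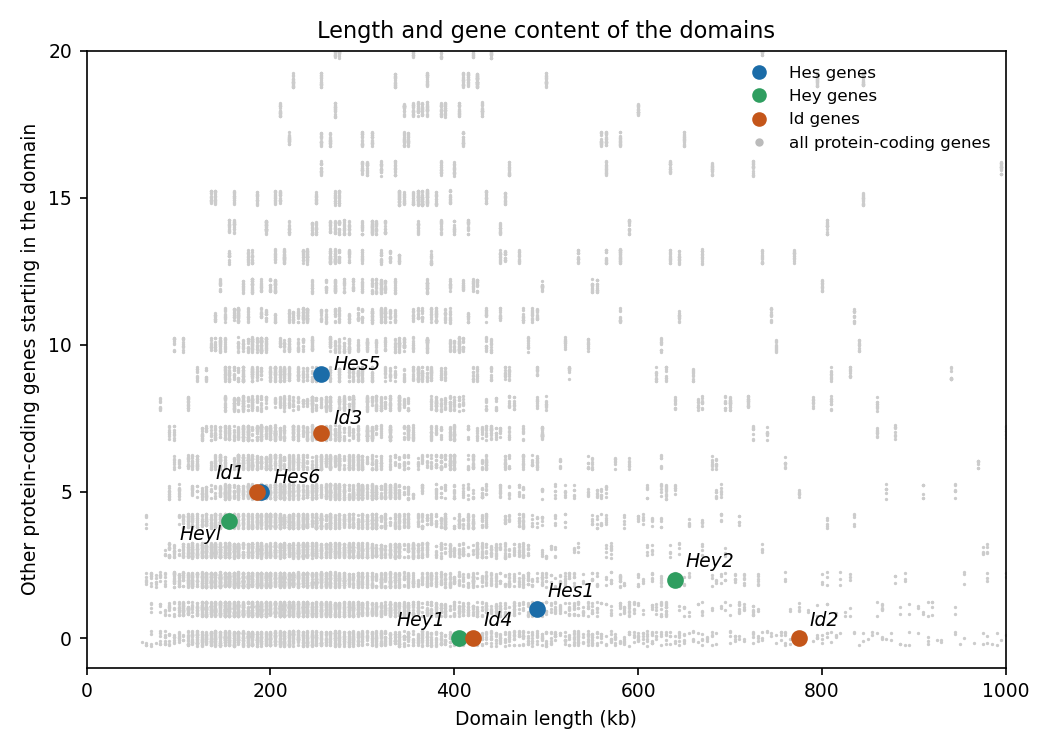
The horizontal axis is domain length in kb and the vertical axis the number of other protein-coding genes starting in the domain, with the 10 genes in colour and all protein-coding genes in grey. Grey points are spread slightly in height for legibility, and domains over 1000 kb or with over 20 other genes fall outside the axes. Hey1, Id4, Hes1, Hey2 and Id2 lie along the bottom from 405 to 775 kb, and the others lie at 155 to 255 kb with 4 to 9 neighbours.

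Of the 20 enclosing boundaries, 8 had a CTCF consensus match within 10 kb, against 26.0% of all boundaries. Strong boundaries had one in 33.7% of cases and weak ones in 17.4%. Of the 20 enclosing boundaries 13 were strong, against 52.8% of all boundaries, so the 26.0% is not a like comparison. The share over the enclosing boundaries of all genes is not given here. The 8 with a match belonged to 5 members, Hes5, Hey1, Id1, Id2 and Id3. Among their 13 matches, 8 pointed into the domain and 5 out of it. The weak upstream boundary of Id1 had 3 matches, of which 2 pointed inward, and the weak upstream boundary of Id2 had 1 that pointed outward. Id3 had 3 matches, the 2 printed above and 1 at its upstream boundary that pointed outward (135960921 to 135960932, minus strand). Inside the bare intervals 3 of 20 had a match, against 6.90% of all boundaries.

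The genes that act with the Hes, Hey and Id factors gave a mixed picture. Of 58 such genes in 5 lists, 11 started within 10 kb of a boundary, 19.0%, close to the 16.4% of all protein-coding genes. Of 6 other genes of the Hes and Hey family, Hes2 (3.87 kb, score 0.972) and Hes7 (4.60 kb, 0.514) did. Of 16 genes of Notch receptors, ligands and their transcription complex, 3 did. They were the ligand gene Jag1 (0 kb, score 0.514), the glycosyltransferase gene Mfng (3.48 kb, 0.203) and Notch4 (4.27 kb, 0.970).

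Of 6 genes of the Groucho family, some of which encode corepressors that Hes proteins recruit, 3 did. They were Tle1 (0 kb, score 1.21), Tle4 (1.95 kb, 0.355) and Tle3 (2.64 kb, 0.616). Of 14 proneural factors and E proteins, 2 did, and both encode E proteins, Tcf4 (0 kb, 0.875) and Tcf12 (1.87 kb, 0.469). Of 16 Bmp ligands, receptors and Smads, only Bmp2 did (2.16 kb, 0.457). The median distance was 21.8 kb for the other Hes and Hey genes and 31.1 kb for the Groucho family. It was 58.7 kb for the proneural factors and E proteins, 98.5 kb for the Bmp genes and 112 kb for the Notch genes, against 55.3 kb for all genes.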

How the data were processed

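In situ Hi-C with DpnII was performed on 2 biological replicates of immediate neuronal precursors, per the labels. The deposited list gives a class and a score per boundary, called by the authors on 1 matrix of both replicates (GRCm38), per the series' design text. For the caller and its settings nothing is given in the sources used here. Pooling lets a deeper replicate weigh more. Contact matrices and insulation tracks were not analysed here.

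Distances, domains and motif matches were computed with Python 3.11.15, numpy 2.4.6 and pandas 2.3.3, and the computation was tested on simulated data. Genes came from GENCODE M21, sequence from RefSeq GRCm38.p6, the same build as the list. The strain of the cells, FVB/NTac, differs from the reference strain, and strain variants were not examined. The gene model's 5′ end was the TSS, and near meant within 10 kb of the interval edge, 0 inside it. Of the protein-coding genes, 227 lie beyond the outermost boundaries and have no domain.

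No test was made: there is a single pooled list. Each main count or median is set beside the same over all protein-coding genes or all boundaries. Named genes are all members, up to 5 genes of each domain (otherwise the 3 nearest) and listed genes near a boundary. Genes at the far boundaries and in adjoining domains were named after their values were seen. The members and lists were chosen with earlier results of these data known. RefSeq promoters were found for 6 of the 10 members, in 7 entries, and the listed name Tle5 was matched through its synonym Aes. A gene of a related list is not reported here.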

Additional observations from a re-analysis of the deposited data

How the results depend on the processing

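The list is pooled from both replicates, so no value could be recomputed without a replicate and depth limits could not be examined. No paired analysis was possible because the list has no values per replicate and there is 1 group. Merging boundaries within 50 kb left all 7841 in place, since no pair lies that close. It, the start of the principal transcript and distances taken from midpoints or domains from inner edges moved no member's distance or domain length by over 5 kb. The median number of other genes was 2.5 with principal transcripts. With strong boundaries alone the median distance of the members was 87.6 kb, the median domain 560 kb and the median number of other genes 6. With boundaries at or above the median score these were 109 kb, 560 kb and 7, and both enclosing boundaries were strong for 10 members, as this set holds only strong ones. Fewer boundaries enter both sets, so distances and domains can only grow. Under strong boundaries alone the distance moved for Hes1 (176 kb), Hes6 and Id1, and 7 domains moved, to 665 kb for Hes1, 660 kb for Hes6, 3070 kb for Hey2, 405 kb for Id1, 1215 kb for Id2, 530 kb for Id3 and 590 kb for Id4. At or above the median score that of Heyl moved as well, to 395 kb. Within 0 kb of a boundary 1 member started and within 50 kb 5. Counting all gene types, the median number of others in the domain was 8. CTCF matches were found at 3 of 20 boundaries in the interval alone and at 18 with 1 mismatch.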
